A study of Rattus norvegicus with 4 samples.

Results

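Hypoxia-inducible factors (HIFs) are the transcription factors through which cells answer low oxygen. An alpha subunit, HIF-1 alpha (Hif1a) or HIF-2 alpha (Epas1), pairs with the constant partner Arnt and binds hypoxia response elements near its target genes. When oxygen is present, prolyl hydroxylases of the Egln family mark the alpha subunits for destruction through the von Hippel-Lindau protein, so that HIF activity is set largely at the level of protein, which RNA does not show. In heart muscle cells HIF targets shift energy supply toward glycolysis, send signals to vessels and adjust mitochondria and collagen, and a pyruvate dehydrogenase kinase, Pdk1, is itself a HIF-1 target.

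The genes described here are 10 named members of this pathway, picked by symbol: the factors Hif1a, Epas1 and Arnt, the hydroxylases Egln1 and Egln3, and the targets Vegfa, Bnip3, Ak4, P4ha1 and Adm. All 10 had a row among the 16290 genes of the deposited table, and 10 passed the filter on low values. RNA came from cultured neonatal rat cardiomyocytes of stage P3. An adenovirus vector had brought in either mock, the control, or Pdk3, a pyruvate dehydrogenase kinase that restrains the entry of pyruvate into the citric acid cycle. There were 2 libraries per group, Mock 1 and Mock 2 against Pdk3 1 and Pdk3 2, and every library carried a vector. No group was labelled as hypoxic. The sources used here give neither the vector's promoter nor the time after infection. They do not say whether the libraries came from separate cultures or animals, so the spread behind each p-value may be no more than technical. The study's title places the comparison in work on glycolysis, pyruvate dehydrogenase and cardiomyocyte proliferation. For the genes here it shows how RNA of the oxygen response differed when Pdk3 was expressed.

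Values are read counts that the authors normalised between libraries and rounded, with totals of 4448199 to 4476649 per library. Pdk3 itself stood at 396 and 411 in the mock libraries and at 1218 and 1177 in the Pdk3 libraries, a 2.97-fold rise (limma adjusted p = 1.47e-06). Reads from the vector and from the cells' own gene are not separated. Cardiomyocyte markers were present in all libraries, with Myh6, a myosin heavy chain of heart muscle, between 3806 and 4127. Over 12838 genes tested, 22.9% passed an adjusted p of 0.05, 11.7% higher and 11.3% lower with Pdk3. The 2 libraries of a group lay closer together than counting noise alone would place them. Over 10583 genes with a mean of at least 50, the chi-square per gene was 0.553 in the mock pair and 0.547 in the Pdk3 pair, where counting noise alone gives 1. Each call below was therefore also taken with p floored at counting noise.

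Of the 10 genes 5 passed the threshold, against 22.9% of all genes tested. The HIF-2 alpha gene Epas1 and the shared partner Arnt fell, while Ak4, P4ha1 and Egln3 rose. Hif1a, Egln1, Vegfa, Bnip3 and Adm did not pass. The median log2 fold change of the 10 was 0.05, beside -0.01 over all genes tested. With p floored at counting noise 4 calls held and that of Egln3 ended, where 15.8% of all genes passed (8.38% higher, 7.45% lower). Counting noise alone, with limma's spread set aside, called the same number, 2 higher and 2 lower, beside 17.1% of all genes (8.87% higher, 8.26% lower). Without limma's intensity trend, which shares the spread among genes of like level, the call of Ak4 held and those of Epas1 (adjusted p = 0.0551), Arnt (0.0827), P4ha1 (0.0838) and Egln3 (0.126) ended. With the 61 measured ribosomal protein genes set level between groups, 2 were higher and 2 lower, beside 35.3% of all genes (7.29% higher, 28.0% lower). The groups of values did not overlap for 6 of the 10 genes, 4 with Pdk3 above and 2 with Pdk3 below, beside 61.0% of all genes tested (29.9% above, 31.1% below).

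**Figure D1:**
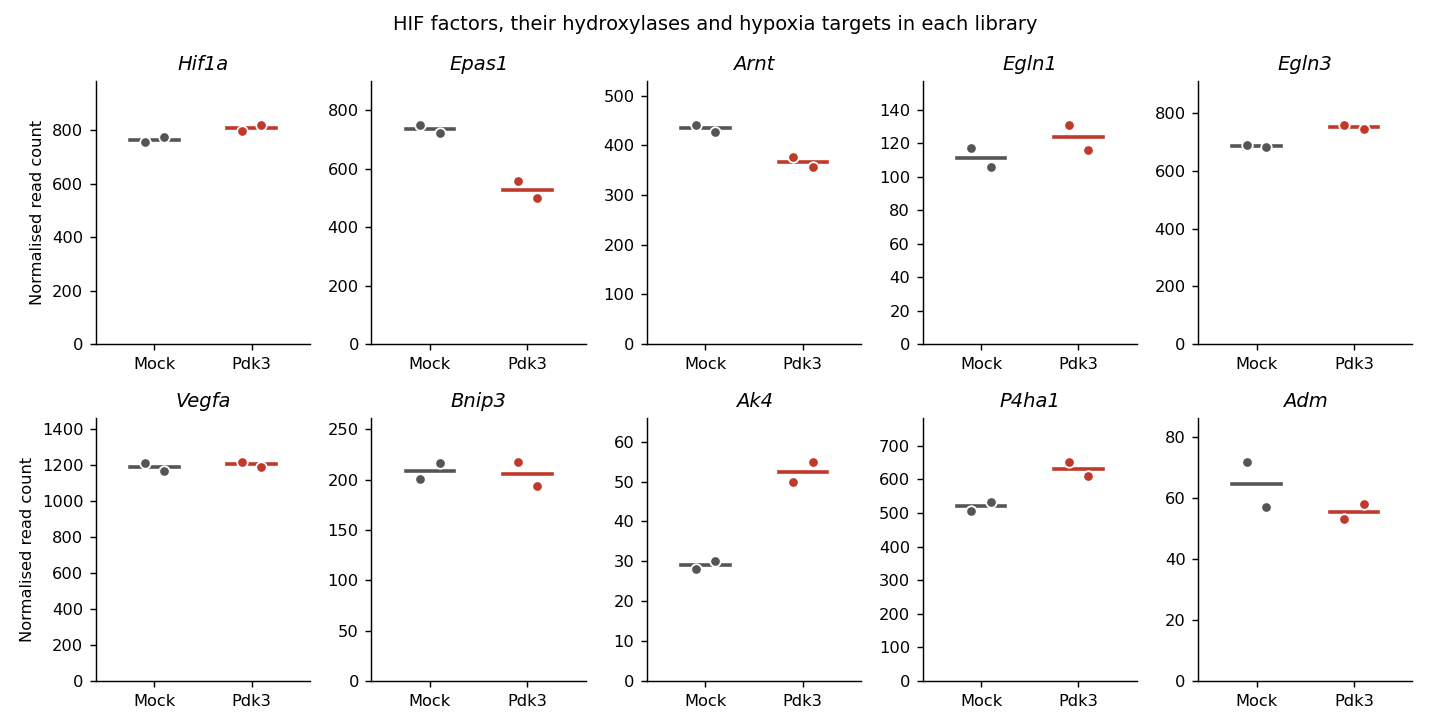
Normalised read count (y axes, each from 0) of the 10 genes in 2 mock libraries (grey) and 2 Pdk3 libraries (red), with each library as a point and the group mean as a bar. Epas1 and Arnt stood lower in both Pdk3 libraries and Ak4 and P4ha1 higher, while the points of Vegfa, Bnip3, Egln1 and Adm overlapped between groups.

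The 3 factors did not move together. Epas1 (ENSRNOG00000021318, chromosome 6, 10306405 to 10387265, rn6) encodes HIF-2 alpha, the alpha subunit known best from blood vessels. Normalised read counts were 750 and 721 in mock, then 557 and 500 with Pdk3. Both Pdk3 values lay below both mock values, and the drop was far wider than the gap inside either pair. The mean fell from 735.5 ± 20.5 to 528.5 ± 40.3 (SD, n = 2 each), which is 1.39-fold and, on the log2 scale, -0.48 ± 0.05 (SE, adjusted p = 0.000749). Of all genes tested 90.4% had a smaller change in size. The fall was larger than counting noise as well, and with 1 library left out the log2 fold change stayed between -0.56 and -0.40.

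Arnt (ENSRNOG00000031174, chromosome 2, 196594303 to 196651179), also called HIF-1 beta, is the usual partner with which either alpha subunit binds DNA. Its counts were 441 and 427 in mock and 377 and 356 with Pdk3, again with no overlap. The mean fell from 434.0 ± 9.9 to 366.5 ± 14.8, which is 1.18-fold and, on the log2 scale, -0.24 ± 0.05 (adjusted p = 0.00832). The call ended without a filter on low values (adjusted p = 0.0576) and, by counting noise alone, without Mock 1 (adjusted p = 0.0913) or Pdk3 2 (adjusted p = 0.159).

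Hif1a (ENSRNOG00000008292, chromosome 6, 96810907 to 96856052) encodes HIF-1 alpha, the subunit that drives glycolytic targets in most cells. It stood at 754 and 773 in mock and at 795 and 819 with Pdk3. The Pdk3 values were the higher ones, though only by a little. Its log2 fold change was 0.08 ± 0.03, with a 95% interval of 0.01 to 0.15, and it did not pass after adjustment (adjusted p = 0.0983). That interval rests on a spread below counting noise, and with p floored at counting noise the adjusted p was 0.342. Set level with the ribosomal protein genes, an alternative scaling under which the median gene stood at -0.09, the value of Hif1a was -0.007.

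Ratios within a library do not depend on the scaling between libraries. Per Hif1a read, Epas1 had 0.995 and 0.933 reads in the mock libraries and 0.701 and 0.611 in the Pdk3 libraries. The mean ratio with Pdk3 was 68.0% of that in mock, and the 4 values fell in 2 groups without overlap. The ratio of Arnt to Hif1a, looked at after the values were known, was 0.585 and 0.552 in mock and 0.474 and 0.435 with Pdk3. These ratios are a description of 2 libraries a group and were not tested.

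**Figure D2:**
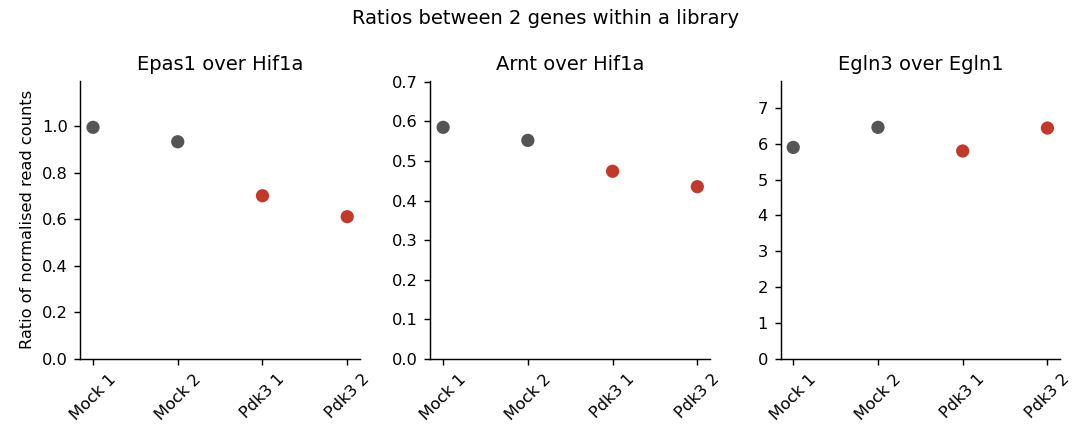
Ratios of the normalised read counts of 2 genes within each of the 4 libraries (y axes from 0, mock grey, Pdk3 red). Epas1 over Hif1a and Arnt over Hif1a were lower in both Pdk3 libraries, from 0.933 and above to 0.701 and below for the first, while Egln3 over Egln1 lay between 5.8 and 6.46 with no order by group.

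Epas1 is rich in endothelial cells, so markers of the other cell types of a heart culture are given beside it. In bulk samples fewer cells of a type and less RNA per cell cannot be told apart. The background for the marker counts here is 22.9% of all genes tested, 11.7% higher and 11.3% lower. Of 9 measured endothelial markers 2 fell, the endothelial cadherin Cdh5 from 189.5 ± 7.8 to 131.5 ± 3.5 (1.44-fold, adjusted p = 0.00247) and the receptor gene Tie1 from 139.0 ± 9.9 to 105.5 ± 3.5 (1.32-fold, adjusted p = 0.0198, and 0.0696 without a filter on low values). The other endothelial markers did not pass, among them the VEGF receptors Kdr (467 and 502 in mock, 536 and 527 with Pdk3) and Flt1 (267 and 244, then 251 and 253). Of the 9 markers Kdr alone had a log2 fold change above 0. The median of the 9 was -0.24, beside -0.01 over all genes tested. The values of 5 stood lower in both Pdk3 libraries and those of 1 higher, beside 31.1% and 29.9% of all genes. The 2 falls are 22.2% of the 9 endothelial markers, beside 22.9% of all genes called in either direction and 11.3% called lower. The summed level of these 9 markers was 1335 and 1383 in mock and 1277 and 1252 with Pdk3. Of 8 macrophage markers 5 fell and 0 rose, with sums of 1372 and 1289 in mock and 1088 and 1049 with Pdk3. Among these were Csf1r, the receptor for macrophage growth factor (log2 fold change -0.31, adjusted p = 0.0067), the complement gene C1qa (-0.65, adjusted p = 0.00832) and Cd68. No marker measured was at 0 in any library, and Cd163, a macrophage marker, was the lowest with 9 to 19. Of 7 fibroblast markers 1 fell (sums of 5484 and 5416, then 5416 and 5265), of 9 cardiomyocyte markers 4 rose and 1 fell (20765 and 20562, then 21481 and 21183), and of 6 smooth muscle and pericyte markers 3 rose (3450 and 3437, then 3866 and 3816). The part of these cells in the fall of Epas1 and in the other values was not tested.

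The hydroxylases Egln1 and Egln3 use oxygen and 2-oxoglutarate to mark HIF alpha subunits, and both genes are known to be switched on by HIF as feedback. Egln3 (ENSRNOG00000005053, chromosome 6, 75050329 to 75075795), encoding the hydroxylase PHD3, was at 690 and 685 in mock and at 760 and 747 with Pdk3. The groups stood apart, with hardly any spread inside them. The mean rose from 687.5 ± 3.5 to 753.5 ± 9.2, which is 1.1-fold and, on the log2 scale, 0.13 ± 0.03 (adjusted p = 0.015). That call ended with p floored at counting noise (adjusted p = 0.0781) and with the ribosomal protein genes level (log2 fold change 0.05, adjusted p = 0.346).

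Egln1 (ENSRNOG00000019773, chromosome 19, 57662278 to 57699113), encoding PHD2, the main oxygen sensor of most tissues, had counts of 117 and 106 in mock and of 131 and 116 with Pdk3. The groups overlapped, and the change did not pass (adjusted p = 0.345). Its 95% interval on the log2 scale ran from -0.09 to 0.38 and thus includes the change of Egln3. The ratio of Egln3 to Egln1 was 5.9 and 6.46 in the mock libraries and 5.8 and 6.44 in the Pdk3 libraries, 99.0% of the mock mean, so that no shift between the hydroxylases showed at this depth.

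Of 23 other tested genes of oxygen sensing and HIF control 2 rose and 3 fell, 21.7% beside 22.9% of all genes (median log2 fold change 0.04). The values of 13 stood higher in both Pdk3 libraries, those of 4 lower, and those of 6 overlapped. Over all genes tested 29.9% stood higher and 31.1% lower. Vhl, the von Hippel-Lindau gene, stood at 302 and 323 in mock and 294 and 314 with Pdk3, and neither the third hydroxylase Egln2 nor Hif1an, which hydroxylates the transactivation domain of HIF alpha, passed (adjusted p = 0.769 and 0.64). Crebbp, a coactivator that HIF recruits, fell from 902.5 ± 9.2 to 805.5 ± 0.7 (1.12-fold, adjusted p = 0.00414). Usp20, a deubiquitinase, fell from 936.0 ± 19.8 to 833.5 ± 0.7 (1.12-fold, adjusted p = 0.00476), and Os9, a lectin of endoplasmic reticulum quality control, fell 1.15-fold, a call that ended without a filter on low values (adjusted p = 0.0886). Arnt2, a close relative of Arnt that can also pair with HIF alpha subunits, rose from 197.0 ± 8.5 to 244.0 ± 8.5 (1.24-fold, adjusted p = 0.012), where Arnt fell. That call ended without a filter on low values (adjusted p = 0.0578) and without an intensity trend (adjusted p = 0.0687). The chaperone gene Hsp90ab1 rose 1.06-fold, a call that ended with p floored at counting noise (adjusted p = 0.147) and turned to -0.006 with the ribosomal protein genes level. Hif3a was at 0 to 4 in the libraries and stayed below the filter.

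The core letters of the hypoxia response element were looked for in RefSeq promoters of build GRCr8, matched by symbol for 10 of the 10 genes. Each window runs from 250 bases before to 50 bases after a gene's start. The letters ACGTG and GCGTG were searched on both strands, and overlapping matches count separately. Of 33469 rat promoter windows 41.6% held at least 1 match. Of the 10 genes 6 held one, Bnip3 with 4, Hif1a and P4ha1 with 3 each, Egln1 with 2 and Arnt and Ak4 with 1 each. Adm, Egln3, Epas1 and both windows of Vegfa held none, which says only that these letters are not in these 300 bases. The 150 bases before the start are shown for 3 targets, P4ha1 and Ak4, which rose, and Bnip3, which did not pass, because the target with the most matches is among those without a call. Capitals mark the matches, each on the gene's own strand, 5′ to 3′, so that CACGC and CACGT are matches on the opposite strand.
P4ha1, chr20:27844896-27845045, plus strand: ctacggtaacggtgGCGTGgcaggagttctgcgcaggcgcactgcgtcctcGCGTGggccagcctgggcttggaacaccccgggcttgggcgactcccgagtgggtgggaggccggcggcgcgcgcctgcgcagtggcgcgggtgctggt
Ak4, chr5:121154986-121155135, plus strand: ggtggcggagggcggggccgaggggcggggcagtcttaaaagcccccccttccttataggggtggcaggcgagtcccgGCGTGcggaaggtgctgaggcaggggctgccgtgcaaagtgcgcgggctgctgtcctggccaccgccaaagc
Bnip3, chr1:203154963-203155112, minus strand: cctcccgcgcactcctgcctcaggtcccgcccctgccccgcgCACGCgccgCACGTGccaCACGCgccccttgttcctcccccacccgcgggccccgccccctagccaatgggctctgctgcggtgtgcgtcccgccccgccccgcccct

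In P4ha1 the matches begin 136 and 99 bases before the start, with 1 more 11 bases after it. In Ak4 the match begins 72 bases before the start. In Bnip3 the 4 matches begin 108, 99, 98 and 90 bases before it, and the middle pair is 1 palindrome read on both strands. A match is a description of letters and not a bound site.

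Among the targets, the largest change was that of Ak4 (ENSRNOG00000045738, chromosome 5, 120250616 to 120305897), a mitochondrial adenylate kinase that balances nucleotide phosphates in the matrix. It was read 28 and 30 times in the mock libraries and 50 and 55 times in the Pdk3 libraries, after normalisation. Both Pdk3 values were well above both mock values, at a low level. The mean rose from 29.0 ± 1.4 to 52.5 ± 3.5, which is 1.81-fold and, on the log2 scale, 0.83 ± 0.16 (95% interval 0.46 to 1.21, adjusted p = 0.00938). Of all genes tested 96.9% had a smaller change in size. By counting noise alone, the call ended without Mock 1 (adjusted p = 0.0536) and without Pdk3 2 (adjusted p = 0.0697).

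Ak3, the matrix enzyme closest in kind to Ak4, was read 449 and 470 times in mock and 454 and 448 times with Pdk3 (adjusted p = 0.668).

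P4ha1 (ENSRNOG00000050655, chromosome 20, 28920616 to 28971966) encodes the catalytic subunit of collagen prolyl 4-hydroxylase, which lets collagen helices form. Counts were 507 and 533 in mock and 653 and 610 with Pdk3. The lowest Pdk3 value was above the highest mock value by more than either pair's own gap. The mean rose from 520.0 ± 18.4 to 631.5 ± 30.4, which is 1.21-fold and, on the log2 scale, 0.28 ± 0.04 (adjusted p = 0.00414). It also passed with the ribosomal protein genes level (log2 fold change 0.19) and ended without a filter on low values (adjusted p = 0.0578).

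Among other genes of collagen processing calls went both ways. Of 12 tested HIF targets of collagen and matrix 1 rose and 1 fell (16.7%, beside 22.9% of all genes), and their median log2 fold change was -0.002. The other catalytic subunit, P4ha2, was read 298 and 298 times in mock and 271 and 266 times with Pdk3 (adjusted p = 0.0589), and the partner subunit P4hb was read 1347 and 1328, then 1409 and 1365 times (adjusted p = 0.162). Serpinh1, a collagen chaperone, rose 1.06-fold, a call that ended with p floored at counting noise (adjusted p = 0.131) and with the ribosomal protein genes level (adjusted p = 0.939). Plod3, a lysyl hydroxylase, fell from 588.0 ± 4.2 to 524.5 ± 20.5 (adjusted p = 0.0192, and 0.0798 without a filter on low values).

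Vegfa (ENSRNOG00000019598, chromosome 9, 17340341 to 17355681) encodes the main growth factor for blood vessels and is among the best known HIF targets. Counts were 1208 and 1164 in mock and 1217 and 1185 with Pdk3. The groups overlapped. The log2 fold change was 0.02 ± 0.03, with a 95% interval of -0.05 to 0.08 (adjusted p = 0.671), an interval that rests on a spread below counting noise. With the ribosomal protein genes level it was -0.07 (adjusted p = 0.0638), and it was also below 0 without Mock 2 and without Pdk3 1.

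Adm (ENSRNOG00000027030, chromosome 1, 175445088 to 175447259) encodes adrenomedullin, a peptide that relaxes vessels. It was read 72 and 57 times in mock and 53 and 58 times with Pdk3, with overlap, and did not pass (log2 fold change -0.21 ± 0.15, adjusted p = 0.378). The 95% interval, -0.56 to 0.15, is wide at this depth. Without Mock 1, the library with the highest value, the log2 fold change was -0.04. Of 5 tested genes of adrenomedullin receptors and relatives 0 passed in limma, beside 22.9% of all genes, and 0 had an unadjusted p under 0.05. Among them were the receptor Calcrl (101.0 ± 8.5 and 111.0 ± 15.6, adjusted p = 0.487) and its accessory protein Ramp3 (59.0 ± 9.9 and 63.5 ± 7.8, adjusted p = 0.668). All 5 had a log2 fold change above 0 (median 0.24), beside 6201 of the 12838 genes tested. The values of 3 stood higher in both Pdk3 libraries and those of 0 lower, beside 29.9% and 31.1% of all genes.

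Of 19 other tested HIF targets of vessels and tone 4 fell and 1 rose (median log2 fold change -0.11). That is 26.3% called, beside 22.9% of all genes tested (11.7% higher, 11.3% lower). Angptl4, a secreted inhibitor of lipoprotein lipase that also answers to PPAR factors, fell from 164 and 177 to 64 and 70 (2.54-fold, adjusted p = 0.000122). Nos3, the endothelial nitric oxide synthase, was read 55 and 65 times in mock and 35 and 26 times with Pdk3 (adjusted p = 0.011), and the chemokine receptor gene Cxcr4 58 and 70, then 44 and 31 times (adjusted p = 0.0294). Both calls ended without a filter on low values (adjusted p = 0.0758 and 0.125). Nos3 is itself a gene of endothelial cells. Of the 9 endothelial markers measured 2 fell, Cdh5 and Tie1, and 7 did not pass. The median log2 fold change of the 9 was -0.24. The part of those cells was not tested. Nt5e, which makes adenosine outside the cell, rose 1.11-fold, a call that ended with p floored at counting noise (adjusted p = 0.135).

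Bnip3 (ENSRNOG00000017243, chromosome 1, 211248098 to 211265282) encodes a receptor of the outer mitochondrial membrane that calls in autophagy of mitochondria. Counts were 201 and 217 in mock and 218 and 194 with Pdk3. The lowest and the highest value both came from Pdk3 libraries. The log2 fold change was -0.02 ± 0.08 (95% interval -0.20 to 0.16, adjusted p = 0.866), and its sign turned without Mock 2 and without Pdk3 2.

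Its close relative Bnip3l, also a mitophagy receptor, did pass. It was read 552 and 537 times in mock and 490 and 444 times with Pdk3, a 1.17-fold fall (adjusted p = 0.0184, and 0.107 without a filter on low values). Whether Bnip3l differs from Bnip3 was not tested, and the interval of Bnip3 nearly reaches the log2 fold change of -0.22 of Bnip3l. Of 10 tested HIF targets of mitochondria and mitophagy 3 fell and 1 rose (median -0.10). Over all genes tested 22.9% passed, 11.7% higher and 11.3% lower. Pink1, a kinase that marks damaged mitochondria, fell from 887.0 ± 2.8 to 738.5 ± 20.5 (1.2-fold, adjusted p = 0.000929), and Mxi1, a MYC antagonist, fell from 455.5 ± 12.0 to 345.0 ± 24.0 (1.32-fold, adjusted p = 0.0022). Higd1a, a hypoxia-induced gene of the inner membrane, rose 1.18-fold, a call that ended with p floored at counting noise (adjusted p = 0.0572), with the ribosomal protein genes level (adjusted p = 0.101) and with the replicate number as a block (adjusted p = 0.0596).

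**Figure D3:**
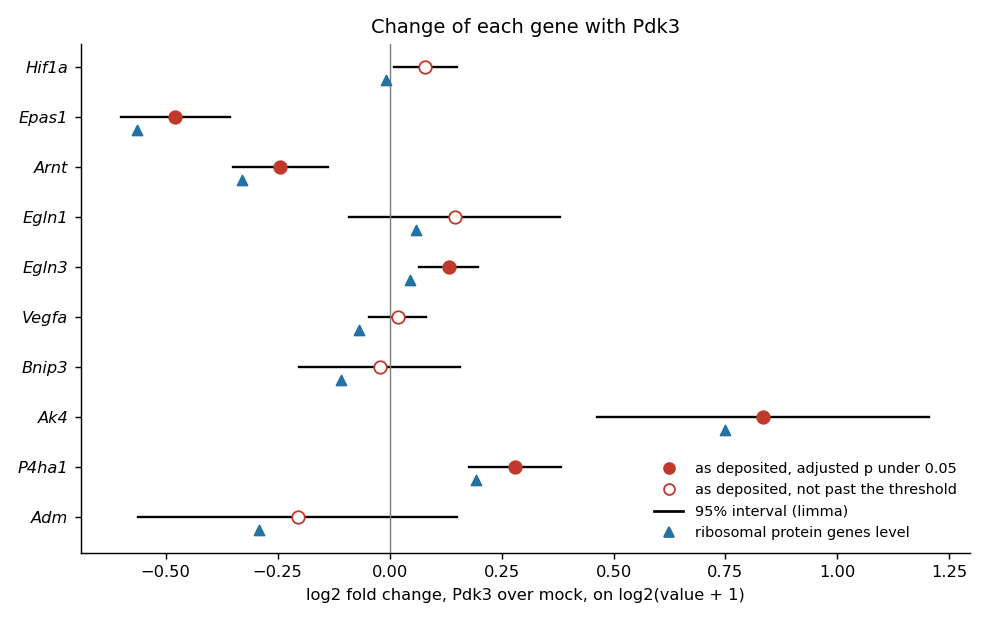
Log2 fold change of Pdk3 over mock (x axis) for the 10 genes, with limma's 95% interval as a line. Filled circles passed an adjusted p of 0.05, open circles did not, and triangles give the value with the ribosomal protein genes level, which moved all 10 genes down by a like amount and turned the sign of Hif1a and Vegfa. Epas1 (-0.48) and Ak4 (0.83) lay farthest from 0.

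Of 21 tested HIF targets of glucose use 7 rose and 1 fell, beside 11.7% higher and 11.3% lower over all genes, with a median log2 fold change of 0.08. The balance of this list turned with the ribosomal protein genes level, to 2 higher and 4 lower, beside 7.29% higher and 28.0% lower over all genes. The number higher was 4 with p floored at counting noise, beside 8.38% of all genes. It was 3 without a filter on low values and 0 without an intensity trend. Those 2 settings called 1276 and 851 of all genes in either direction. The ribosomal protein genes, of which limma called 0, had a median of the same size (0.08). The lactate exporter gene Slc16a3 rose from 622.0 ± 7.1 to 711.0 ± 11.3 (1.14-fold, adjusted p = 0.00418), the glucose transporter gene Slc2a1 1.15-fold and the phosphofructokinase gene Pfkl 1.11-fold. The call of Pfkl ended with the ribosomal protein genes level (adjusted p = 0.147) and that of Slc2a1 without a filter on low values (adjusted p = 0.0538). Ldha, Pgk1 and Pdk1, also well-known HIF-1 targets, did not pass (adjusted p = 0.19, 0.187 and 0.282). Of the 21 genes 17 had a log2 fold change above 0. Of the same 21 genes 15 stood higher in both Pdk3 libraries and 4 lower, beside 29.9% and 31.1% of all genes. Among the 61 ribosomal protein genes these numbers were 38 and 0. Aldoc, an aldolase, fell from 500.0 ± 7.1 to 318.0 ± 5.7 (1.57-fold, adjusted p = 5.59e-05).

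Of 27 other common HIF targets 3 rose and 5 fell, 29.6% beside 22.9% of all genes (median -0.10). Tfrc, the transferrin receptor that brings iron into cells, rose from 1146.5 ± 14.8 to 1413.5 ± 33.2 (1.23-fold, adjusted p = 0.000231). Pam, a peptide-processing enzyme, rose 1.06-fold, a call that ended with the ribosomal protein genes level (adjusted p = 0.972), and Zfp395, a zinc finger gene, 1.24-fold. Both of these calls ended without a filter on low values (adjusted p = 0.0746 and 0.0993). The kinase gene Dapk1 fell from 515.5 ± 7.8 to 357.5 ± 21.9 (1.44-fold, adjusted p = 0.000361), the clock repressor Bhlhe40 1.21-fold and the histone demethylase Kdm4b 1.15-fold. Targets that are usually sensitive to low oxygen and low at rest were few in reads here. Ankrd37 had 9 to 12, Hilpda 22 to 33 and Car9 11 to 26, and none of these passed (adjusted p = 0.794, 0.999 and 0.188).

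**Figure D4:**
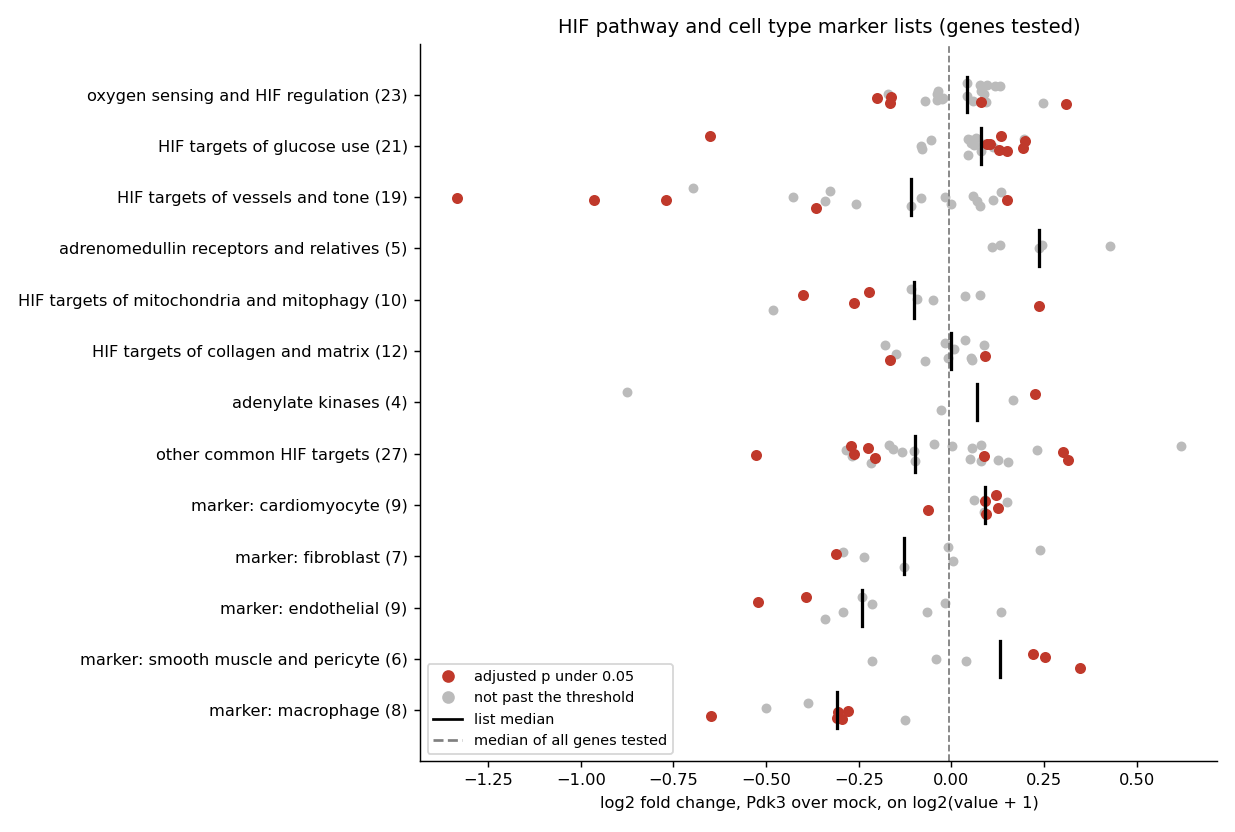
Log2 fold change of Pdk3 over mock (x axis) for each tested gene of 8 HIF pathway lists and 5 lists of cell type markers, with the number of genes in brackets. Red points passed an adjusted p of 0.05, black bars are list medians and the dashed line is the median of all genes tested, -0.01. Red points lay on both sides of 0 in most HIF lists, while those of endothelial and macrophage markers lay below 0.

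Over the 8 HIF lists together, 121 genes were tested, 16 rose and 17 fell, 27.3% beside 22.9% of all genes. With the ribosomal protein genes level 6 were higher and 39 lower, beside 936 and 3595 over all genes tested, so that the balance of a list turns with the scaling as that of all genes does. In the table's own annotation, of 88 tested genes of the HIF-1 signaling pathway 9 rose and 14 fell, 26.1% beside 22.9% of all genes (median -0.01), among them Mtor, a growth kinase, 1526.5 in mock and 1679.0 with Pdk3 (adjusted p = 0.00242, and 0.122 with the ribosomal protein genes level), and Stat3, 1816.0 and 1686.0 (adjusted p = 0.00566). Of 224 tested genes annotated to the response to hypoxia 28 rose and 44 fell, 32.1% beside the same 22.9%, with more falls than rises (median -0.02), and Pdk3 is one of those that rose. Of the 10 genes described here, 4 are in the first of these annotations and 5 in the second.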

How the data were processed

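Tools named in the submitters' processing notes are FastQC, Trimmomatic 0.39, STAR 2.6.1d, featureCounts 1.6.5 of Subread and DESeq2 1.26.0, with build rn6 and no settings. The deposited values are used as a score, being read counts per gene that the authors normalised and rounded to whole numbers. The sources used here do not give the strand setting, the treatment of duplicates or the gene filter. The steps between the whole numbers gave scaling factors of 0.9246 to 1.0566 and about 4139333 to 4706918 reads per library.

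Values were tested as log2(value + 1) with limma 3.58.1 in R 4.3.3 (intensity trend, group as the single term) over the 12838 genes that reached 10 in 2 or more libraries. P-values were two-sided and Benjamini-Hochberg adjusted over all of these genes, with a threshold of 0.05. Fold changes are ratios of group means, and log2 fold changes, which understate the change of low genes, are on the log2(value + 1) scale. Errors of means are SDs over n = 2. No molecular identifiers are named, so reads may repeat a molecule, and the floor below covers counting error only. The floor takes the larger of limma's p and an exact binomial p of summed reads.

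Members, lists and alternatives were chosen with earlier results of these data known. Text names all 10 members, Pdk3, and from each list up to 3 genes past the threshold in each direction by smallest p, or the 2 of highest mean where none passed. Other list genes (Vhl, Egln2, Hif1an, Hif3a, Kdr, Flt1, Cd163, Ak3, P4ha2, P4hb, Ldha, Pgk1, Pdk1, Ankrd37, Hilpda, Car9) are named for their roles after their values were seen. One list gene that met the rule is not reported here. Alternatives were other scalings, filters, pseudocounts, no trend, a replicate block, each library left out and, added after seeing the data, counting noise alone. The model was tested on simulated data with full counting noise, a wider spread within pairs than that of these libraries. That test therefore does not check p-values at the spread seen here.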

Additional observations from a re-analysis of the deposited data

How the results depend on the processing

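The direction of Epas1, Arnt, Egln1, Egln3, Ak4, P4ha1 and Adm held under every alternative run. Signs turned for Hif1a (-0.007) and Vegfa (-0.069) with the ribosomal protein genes level, and with 1 library left out for Vegfa (-0.009 to 0.045; -0.009 without Mock 2, -0.001 without Pdk3 1) and Bnip3 (-0.106 to 0.062; 0.033 without Mock 2, 0.062 without Pdk3 2). With 1 library left out, the lone library is assumed to vary like the rest, the fit has 1 residual degree of freedom and limma called 0 members, 0 genes of the 8 HIF lists and 0 of all genes, while 2918 to 3330 of all genes and 5 members had an unadjusted p under 0.05. By counting noise alone, the same omissions left 1 to 2 members higher and 1 to 2 lower, 3 to 5 list genes higher and 8 to 13 lower, and of all genes 778, 844, 794 and 782 higher and 632, 743, 626 and 603 lower (without Mock 1, Mock 2, Pdk3 1 and Pdk3 2). Epas1 and P4ha1 were called in each of these, and Ak4 and Arnt ended without Mock 1 and without Pdk3 2.

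Without an intensity trend, 1 member was higher (Ak4) and 0 lower, though 5 had an unadjusted p under 0.05, and Epas1 had an adjusted p of 0.0551. There, 1 list gene was higher and 3 lower, and 526 and 325 of all genes. Without a filter on low values, 1 member was lower (Epas1), 4 list genes were higher and 9 lower, and 737 and 539 of all genes. At a false discovery rate of 0.01, 4 list genes were higher and 9 lower, and 766 and 576 of all genes. With the ribosomal protein genes level, 6 list genes were higher and 39 lower, and 936 and 3595 of all genes. A minimum value of 50 gave 19 list genes higher and 27 lower, where 3402 of all genes were called in either direction. With p floored at counting noise, 9 list genes were higher, beside 1076 of all genes higher and 956 lower. With counting noise alone 10 list genes were higher, beside 1139 of all genes. Of 26 list genes that passed and met the naming rule, calls ended for 22 without a trend, 14 without the filter, 6 with the ribosomal protein genes level, 4 at the floor and 0 with TMM scaling, another minimum or another pseudocount. The cause of these differences was not tested.

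Mock and Pdk3 libraries share only a replicate number. Same-numbered libraries did not deviate together (correlation over 12838 genes 0.0384), and with a replicate block 5 members and 2672 of all genes passed. Depth limits Adm, Egln1 and Ak4 most, whose libraries held at most 131 normalised reads each.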
